A study of Gossypium hirsutum with 6 samples.

Results

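EARLY FLOWERING 3 (ELF3) genes were described in leaf RNA of upland cotton, Gossypium hirsutum, an allotetraploid that carries an A and a D subgenome. Members were the genes whose protein description held the words EARLY FLOWERING 3 and whose mean level reached 1 FPKM in at least 1 group. FPKM counts fragments per length of transcript and relative to all mapped fragments of a library. There were 9 members among 72761 genes in the table. A further gene with this description, GH_A02G1386, stood at 0 in all 6 libraries and was no member.

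The libraries were poly-A selected leaf RNA from 3 samples of transgenic lines, titled FPF1 after the flowering-promoting factor 1 gene, and 3 samples of the wild type, titled W10. The study concerns FPF1 in the shade avoidance of cotton, and the comparison asks which leaf transcripts differ between these lines and the wild type. The labels name neither the promoter, nor the number of lines, nor the age of the plants, nor the hour of collection. Whether samples of a group came from separate plants is not stated, so a p here reflects how these samples scatter, and that scatter may be technical.

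ELF3 is a nuclear protein of the plant circadian clock. In Arabidopsis it is the scaffold of the evening complex, in which it joins ELF4 and the DNA-binding factor LUX, and this complex represses clock genes and growth genes such as PIF4 from dusk into the night. ELF3 also binds phytochrome B and the ubiquitin ligase COP1, and plants that lack it flower early and have long hypocotyls. Its own transcript peaks in the evening there.

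Between 52037 and 53560 genes were above 0 in a library, and read numbers are unknown. GH_D02G0524, the FPF1-like gene that separates the groups, had 133, 199 and 195 FPKM in transgenic 1 to 3 and 0, 0 and 0.467 FPKM in wild type 1 to 3, the order used for all values below. Wild type 2 and wild type 3 were the least alike within a group (Pearson r = 0.932 across genes, which are not independent replicates), below the highest value between groups (0.943). Summed leaf markers (RuBisCO small subunits and chlorophyll a-b binding genes, 53 listed, 2 at 0 throughout) lay at 2242 to 2877 FPKM in the transgenic and 3841 to 5328 in the wild-type libraries. Of 46 tested leaf markers, 23 fell and 2 rose by limma, where 1.78% and 3.92% of all genes tested did. The leaf genes were listed as also clock-driven. Summed xylem secondary wall markers (33 listed, 7 at 0) lay at 45.3 to 95.3 against 11.0 to 12.5 FPKM, with 10 of 14 tested higher and none lower. Markers of floral organs (96 listed, 46 at 0) summed to 163 to 239 against 207 to 223 FPKM, with 4 of 23 tested lower and none higher. Markers of dividing cells (32 listed, 1 at 0) summed to 160 to 183 against 192 to 200 FPKM, with none of 10 called by limma (2 at an unadjusted p under 0.05). Of all genes tested, 24.0% had such an unadjusted p. The part of these marker differences in the results on ELF3 was not tested. In whole leaves, fewer cells of a type and less RNA per cell cannot be told apart.

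The 9 members lay on 3 chromosome numbers, as read from their identifiers. Chromosome 7 held 4, as a pair with consecutive order numbers on A07 (GH_A07G0242 and GH_A07G0243) and a pair on D07 (GH_D07G0249 and GH_D07G0250). Both pairs lay between a vacuolar-processing enzyme gene and an MLP-like protein 28 gene, in the same order. Chromosome 5 held 3, of which GH_A05G1345 and GH_A05G1346 were consecutive on A05 and GH_D05G1351 stood alone on D05. Chromosome 9 held GH_A09G0995 and GH_D09G0947, each next to an isoleucine--tRNA ligase gene. All 10 listed genes, and no other gene in the table, carried the KEGG orthology entry for ELF3, K12125. The deposited annotation gave 16 GO terms to 9 of the 10 and 3 general ones to GH_A05G1346. Reads of homeologs and of such neighbouring copies may be shared between identifiers, and the handling of shared reads is not given in the sources used here, so single copies are uncertain.

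All 4 chromosome 7 genes stood higher in every transgenic library than in any wild-type library, and 3 of them rose by the test used. The chromosome 9 pair stood lower on average, by values that did not pass the test, and the 3 chromosome 5 genes showed no call. In all, 3 of 9 members rose and none fell, nor was any lower at an unadjusted limma p under 0.05. Among all 43837 genes tested, 3.92% rose and 1.78% fell. The test was limma on log2(FPKM + 1), two-sided, with p adjusted over all genes tested by the Benjamini-Hochberg method and a call at an adjusted p under 0.05. All 9 members were far above the minimum of 1 FPKM in both groups, the lowest group mean being 7.46 FPKM, so none entered through 1 group alone. The median log2 fold change was 0.21 over the members and 0.08 over all genes tested. A positive value, of any size, was found for 6 of 9 members and for 60.6% of all genes tested.

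**Figure D1:**
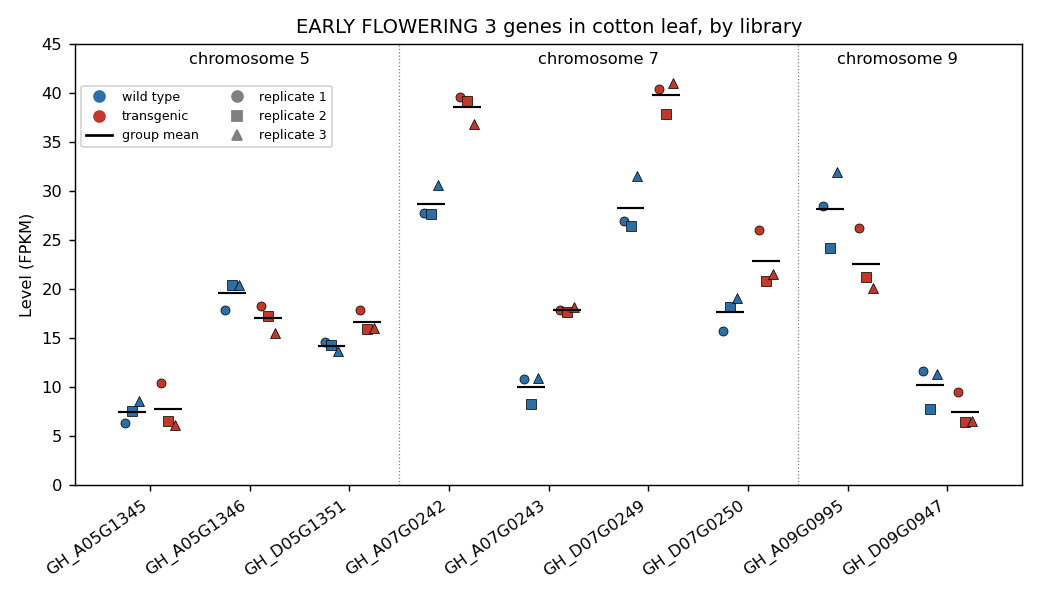
Level of each of the 9 ELF3 genes in FPKM (vertical axis) in the 3 wild-type libraries (blue) and the 3 transgenic libraries (red), with marker shapes for replicate numbers and black lines for group means. The 4 chromosome 7 genes and GH_D05G1351 have no overlap between the groups, while the other 4 genes overlap.

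GH_A07G0243 had the largest difference among the members. Its transgenic levels were 17.9, 17.6 and 18.1 FPKM, and its wild-type levels 10.9, 8.20 and 10.9. The transgenic values lay within 1 FPKM of each other and all above the wild type. The ratio of the means was 1.79, for a log2 fold change of 0.79 (standard error 0.13, limma, adjusted p = 0.0192). The call ended without transgenic 2, transgenic 3 or wild type 1, where the adjusted p was 0.0882, 0.0720 and 0.0663. It held under both other scalings of the libraries.

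GH_A07G0242, its neighbour, reached 39.6, 39.2 and 36.8 FPKM in transgenic leaf and 27.7, 27.7 and 30.6 in wild-type leaf. The groups did not overlap, with a gap from 30.6 to 36.8 FPKM between them. The difference on the log2 scale was 0.41 (standard error 0.09, limma, adjusted p = 0.0491), a value just under the threshold. It was not called without any 1 of the 6 libraries (adjusted p from 0.0517 to 0.176) nor after rescaling (0.0978 by median of ratios, 0.0842 by upper quartile).

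GH_D07G0249 was the most abundant member, at 40.4, 37.9 and 41.0 FPKM in transgenic leaf and 26.9, 26.4 and 31.6 in wild-type leaf. Again every transgenic library exceeded every wild-type one. Its log2 difference was 0.48 (standard error 0.11, limma, adjusted p = 0.0456). The call was kept without wild type 3 (adjusted p = 0.0328) but ended without any other library (0.0855 to 0.167) and after both rescalings (0.0801 and 0.0731).

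GH_D07G0250, the neighbour on D07, stood at 26.1, 20.8 and 21.6 FPKM against 15.7, 18.2 and 19.1. The groups came close, the lowest transgenic value being 20.8 and the highest wild-type value 19.1. The log2 fold change was 0.35 with an interval of 0.05 to 0.65 at 95%, and the gene was not called (limma, adjusted p = 0.151). Together, the groups of 5 of the 9 members did not overlap, all with higher transgenic values, as in 20.6% of all genes tested. None had all transgenic values below the wild type, as in 9.51% of genes tested.

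Of the chromosome 5 genes, GH_D05G1351 had no overlap, at 17.9, 15.9 and 16.0 FPKM against 14.6, 14.3 and 13.7. The separation was small, and the log2 difference of 0.21 was not called (limma, adjusted p = 0.240). GH_A05G1346 leaned the other way, at 18.3, 17.2 and 15.5 FPKM against 17.8, 20.4 and 20.4, with a log2 difference of -0.19 (limma, adjusted p = 0.333). GH_A05G1345, among the least abundant members, stood at 10.4, 6.53 and 6.12 FPKM against 6.34, 7.53 and 8.51. The groups overlapped, the transgenic range being the wider through transgenic 1, with a log2 difference of 0.01 and an interval of -0.47 to 0.49 at 95%. The sign of that difference turned after rescaling.

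The chromosome 9 genes had lower means in the transgenic libraries. GH_A09G0995 stood at 26.2, 21.2 and 20.1 FPKM against 28.5, 24.2 and 31.9, and its log2 difference was -0.31 (interval -0.65 to 0.03 at 95%, limma, adjusted p = 0.238). Transgenic 1 lay above wild type 2, so the groups overlapped. GH_D09G0947 stood at 9.43, 6.41 and 6.53 FPKM against 11.6, 7.72 and 11.3, with a log2 difference of -0.40 (interval -0.87 to 0.06, adjusted p = 0.265). In both genes transgenic 1 was the highest of its group and wild type 2 the lowest. Over all 9 members, transgenic 1 was the highest transgenic library in 7 and wild type 2 the lowest wild-type library in 5.

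**Figure D2:**
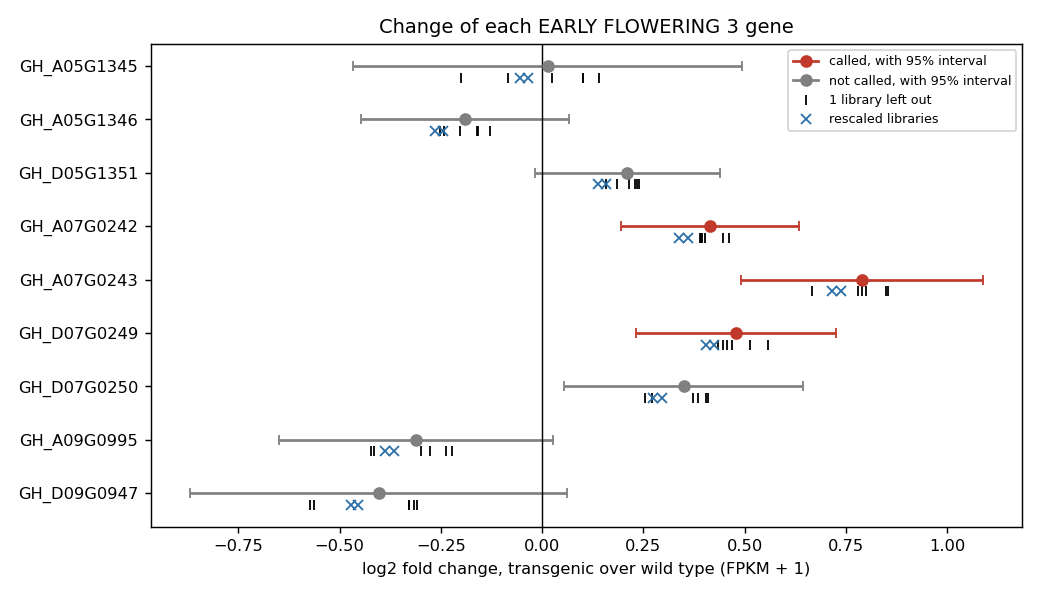
Log2 fold change of each ELF3 gene (circles, red where called, grey where not) with its 95% interval from limma. Black ticks give the values with 1 library left out and blue crosses those after rescaling the libraries. All circles, ticks and crosses of the 4 chromosome 7 genes lie above 0 and those of both chromosome 9 genes below it, whereas those of GH_A05G1345 fall on both sides.

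The authors' deposited table gave a second view of the same libraries, by a test it does not name. Its q-value was 0.00165 for GH_A07G0243 and lay between 0.143 and 0.974 for the other 8 members. So 1 of 9 members had a deposited q under 0.05, as did 9.35% of the genes tested here. In the authors' deposited table, GH_D07G0249 and GH_A07G0242, called by limma, had q-values of 0.178 and 0.291. The unadjusted p of the authors' deposited table was under 0.05 for 2 higher members, GH_A07G0243 and GH_D07G0249 (0.0282), and for both lower members of chromosome 9, GH_A09G0995 (0.0371) and GH_D09G0947 (0.0204). In the same table it was under 0.05, with a higher or a lower level, for 9.74% and 9.12% of the genes tested here. At an unadjusted limma p under 0.05 there were 4 members, the 4 on chromosome 7, against 24.0% of all genes tested.

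The order of the levels shifted between the groups. In the wild type, GH_A07G0242 (28.7 ± 1.68 FPKM, mean ± SD, n = 3), GH_D07G0249 (28.3 ± 2.85) and GH_A09G0995 (28.2 ± 3.86) formed the top and overlapped each other. GH_A05G1346 (19.5 ± 1.47) and GH_D07G0250 (17.7 ± 1.74) came next and overlapped, followed by GH_D05G1351 (14.2 ± 0.469), which lay apart from both neighbours in the order. At the bottom were GH_D09G0947 (10.2 ± 2.15), GH_A07G0243 (9.995 ± 1.55) and GH_A05G1345 (7.46 ± 1.09), each overlapping the next. In the transgenic libraries GH_D07G0249 (39.7 ± 1.64) and GH_A07G0242 (38.5 ± 1.498) stood alone at the top. GH_D07G0250 (22.8 ± 2.85) and GH_A09G0995 (22.5 ± 3.25) shared the next level. GH_A07G0243 (17.9 ± 0.249) now overlapped GH_A05G1346 (16.998 ± 1.44), which in turn overlapped GH_D05G1351 (16.6 ± 1.11). GH_A05G1345 (7.69 ± 2.38) and GH_D09G0947 (7.46 ± 1.71) were lowest and overlapped.

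Summed over the 9 members, ELF3 transcript came to 206, 183 and 182 FPKM in transgenic leaf and 160, 155 and 178 in wild-type leaf. The groups did not overlap, but transgenic 3 exceeded wild type 3 by little. The means were 190.2 ± 13.8 and 164 ± 12.2 FPKM (SD, n = 3 each), a ratio of 1.16, and the exact permutation test gave a two-sided p of 0.1, the smallest that 3 against 3 can give. The difference of 26.0 FPKM came to 16.5 after median-of-ratios scaling. After that scaling, and after upper quartile scaling, wild type 3 stood above transgenic 2 and transgenic 3. The groups thus overlapped in the summed level once the libraries were rescaled.

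The make-up of this sum also differed. The chromosome 7 genes gave 60.1%, 63.2% and 64.7% of the ELF3 sum in the transgenic libraries and 50.7%, 52.1% and 51.8% in the wild type. Each transgenic library was thus at least 8 points above each wild-type one (62.6% ± 2.33 against 51.5% ± 0.708, SD, n = 3 each, exact permutation p = 0.1). The chromosome 9 share was 17.3%, 15.1% and 14.7% against 25.0%, 20.6% and 24.3%, and that of chromosome 5 was 22.6%, 21.7% and 20.7% against 24.2%, 27.3% and 23.9%. Neither overlapped between the groups (exact permutation p = 0.1 for both). As shares of 1 sum, these 3 values are tied to each other, and the grouping by chromosome was chosen after the values were seen. In FPKM, the chromosome 5 genes summed to 41.3 ± 4.73 in the transgenic and 41.2 ± 2.09 in the wild-type libraries (SD, n = 3 each). For single members, 6 of 9 shares did not overlap between the groups, with p = 0.150 at the lowest after adjustment over the 9 (exact permutation test, two-sided).

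**Figure D3:**
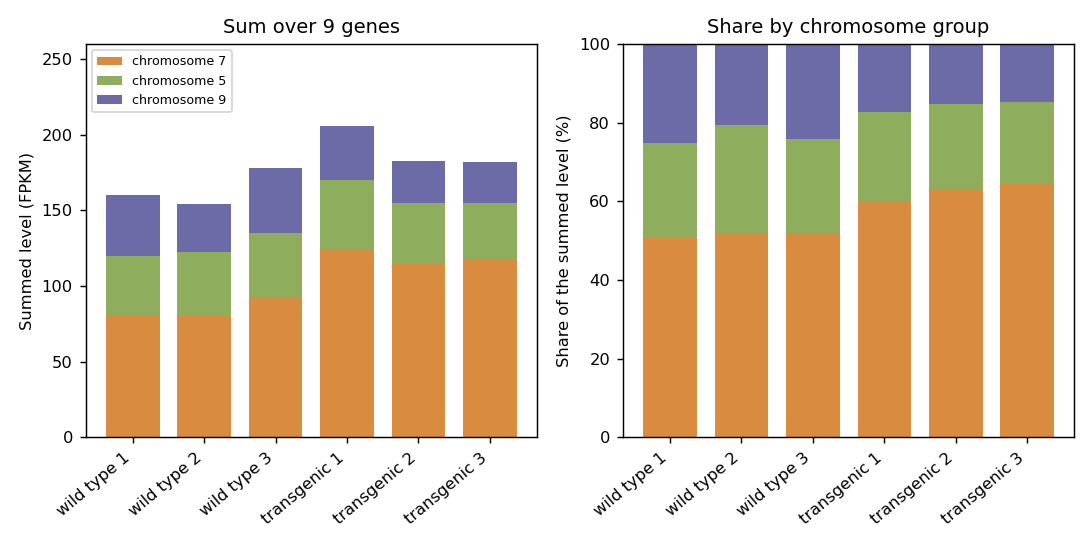
Summed level of the ELF3 genes in FPKM (left) and shares of that sum in percent (right) in each library, stacked by chromosome number. The chromosome 7 part is larger in every transgenic library (60.1% to 64.7%) than in any wild-type library (50.7% to 52.1%).

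The A and D copies were compared within libraries. The A subgenome gave 54.5%, 55.7% and 53.2% of the ELF3 sum in the transgenic libraries and 57.0%, 56.9% and 57.5% in the wild type, without overlap (exact permutation p = 0.1). On chromosome 7 the ratio of A to D levels was 0.904 ± 0.0563 against 0.843 ± 0.0538 (SD, n = 3 each) and the groups overlapped. On chromosome 9 the A copy exceeded the D copy in both groups, by 3.06 ± 0.266 against 2.81 ± 0.338 times, also with overlap. On chromosome 5 the ratio of the A pair to the D gene was 1.61, 1.495 and 1.35 against 1.66, 1.95 and 2.11, with no overlap (exact permutation p = 0.1).

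Consecutive copies did not keep 1 ratio throughout. GH_A07G0242 exceeded GH_A07G0243 by 2.22, 2.22 and 2.03 times in the transgenic libraries and by 2.56, 3.37 and 2.80 times in the wild type. The groups did not overlap (exact permutation p = 0.1). On D07 the ratio of GH_D07G0249 to GH_D07G0250 was 1.55, 1.82 and 1.90 against 1.71, 1.45 and 1.66, with overlap. On A05 the ratio of GH_A05G1346 to GH_A05G1345 was 1.75, 2.64 and 2.53 against 2.81, 2.70 and 2.40, and transgenic 1 stood apart.

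Genes beside the ELF3 copies were read for context. Within 3 order numbers of the 10 listed genes there were 42 other genes, of which 21 were expressed enough to be tested and none was called by limma, where 5.70% of all genes tested were. At an unadjusted p under 0.05 there were 2 of the 21, against 24.0% of all genes tested. Both were among the 6 tested neighbours on chromosome 7, GH_A07G0240 and GH_D07G0248. Next to the A07 pair, GH_A07G0241 had a log2 difference of 0.25 (adjusted p = 0.212), and next to the D07 pair, GH_D07G0248 had 0.29 (adjusted p = 0.138). In both genes every transgenic library stood above every wild-type one, as in 20.6% of all genes tested. The vacuolar-processing enzyme genes 1 place farther, GH_A07G0240 and GH_D07G0247, stood lower, at -0.25 and -0.15 (adjusted p = 0.198 and 0.381), likewise without overlap between the groups. Such separation with lower transgenic values was found for 9.51% of all genes tested.

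The partners of ELF3 in the evening complex gave 1 call. Of 25 tested ELF4, ELF4-like, PCL1 and BOA genes, none rose and 1 fell, close to the 3.92% and 1.78% of all genes tested, with a median log2 fold change of -0.10 against 0.08 for all genes tested. The gene that fell was GH_D07G1080, PCL1-like, PCL1 being another name of LUX. Its levels were 15.1, 11.8 and 13.6 FPKM in transgenic against 22.8, 23.9 and 23.9 FPKM in wild-type leaf (log2 -0.77, limma, adjusted p = 0.0151). The transgenic values were all lower, by more than the spread within either group. The other 5 PCL1 genes had log2 differences from -0.16 to 0.36, and the BOA-like genes, close relatives of LUX, 0.20 and 0.24, none of them called. None of the 17 ELF4 and ELF4-like genes, which code for small proteins that bind ELF3 in Arabidopsis, was called by limma, with values from -0.53 to 0.35 and 4 at an unadjusted p under 0.05. Such an unadjusted p was found for 24.0% of all genes tested. Both genes described as EARLY FLOWERING 4 had lower means, GH_A06G1886 at 19.8, 21.6 and 27.1 against 30.1, 38.7 and 29.5 FPKM (adjusted p = 0.107) and GH_D06G1920 with a log2 difference of -0.51 (adjusted p = 0.157). The first did not overlap between the groups, the second did. Those described as EARLY FLOWERING 4-like, GH_D10G2718 and GH_A10G2613, had log2 differences of -0.21 and 0.08, with overlap. Without overlap, 2 of the 25 partners were higher and 3 lower, against 20.6% and 9.51% of all genes tested. Among the lower ones was also GH_A05G0329, ELF4-LIKE 3-like (log2 -0.53, limma, adjusted p = 0.163). The 2 higher ones were not called. GH_D05G0884, ELF4-LIKE 1-like and the most abundant of the list, had 111, 129 and 138 against 92.5, 106 and 97.4 FPKM (log2 0.35, limma, adjusted p = 0.127). GH_A01G2141, PCL1, had 13.0, 12.8 and 12.6 against 11.5, 8.92 and 9.15 FPKM (log2 0.36, adjusted p = 0.127).

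Several families of daytime clock genes fell in the same libraries, with the lowest median log2 fold changes in APRR5 (-1.46) and LNK (-1.34). In Arabidopsis the evening complex represses GIGANTEA and APRR7, which were also among them. It represses PIF4 too, and the PIF4-like genes GH_A09G0082 and GH_D09G0088 were not called by limma (log2 -0.70 and -0.10). Any part of ELF3 in these falls was not tested. Of 25 tested pseudo-response regulators, 14 fell and none rose, against 1.78% and 3.92% of all genes tested. Several families of these act in sequence from morning to evening. The 14 that fell were all 7 APRR5 genes, all 3 APRR3 genes, 3 of 4 APRR7 genes and 1 of 2 PRR37 genes. The 4 APRR2 genes were not called, with log2 differences from -0.04 to 0.18. The 1 tested APRR9 gene, GH_A07G1041, was lower in every transgenic library without a call (log2 -1.02, limma, adjusted p = 0.102). Its mean over all libraries was only 0.945 FPKM. The 4 APRR1 genes (APRR1 is also known as TOC1), which like ELF3 act in the evening, were not called by limma, with a median of 0.17 and 1 at an unadjusted p under 0.05. The smallest adjusted p of the list was that of GH_D04G0005, an APRR5 gene, at 22.1, 18.8 and 20.2 against 57.2, 53.7 and 62.0 FPKM (log2 -1.46, limma, adjusted p = 0.00170). All 4 GIGANTEA genes fell, among them GH_A02G0676 (log2 -1.38), and so did 2 of 4 genes for Adagio 3, a blue light receptor known as FKF1, but none of 4 for Adagio 1 (1 at an unadjusted p under 0.05). All 9 LNK genes fell, and the smallest adjusted p among them was that of GH_A12G0137, at 9.36, 7.93 and 8.21 against 26.0, 26.6 and 24.9 FPKM (limma, adjusted p = 0.00140). None of 15 morning MYB genes, the LHY and REVEILLE factors, was called by limma (median -0.09, 3 at an unadjusted p under 0.05). That p was found for 24.0% of all genes tested. The 3 LHY genes had log2 differences from -0.84 to -0.43, while the 12 REVEILLE genes ranged from -0.70 to 0.43. Without overlap, 4 of the 15 were lower and 2 higher, against 9.51% and 20.6% of all genes tested. The authors' deposited q was under 0.05 for 1 LHY and 2 REVEILLE genes, against 9.35% of the genes tested here.

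**Figure D4:**
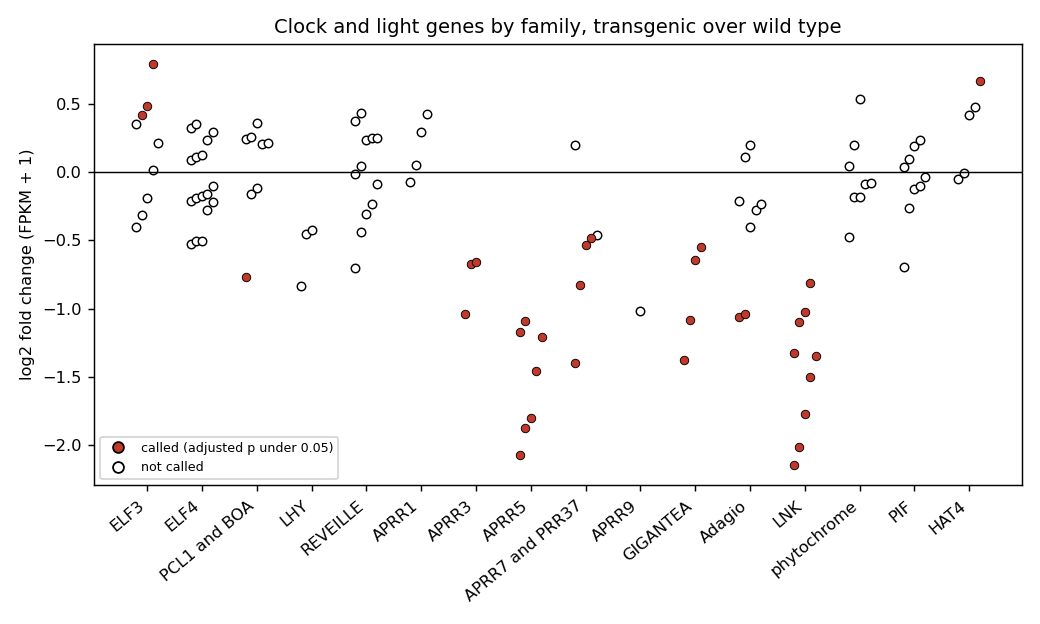
Log2 fold change (vertical axis) of every tested gene of the families named on the horizontal axis, filled red where called and open where not. The called ELF3 and HAT4 genes lie above 0, while the called APRR3, APRR5, APRR7 and PRR37, GIGANTEA, Adagio, LNK and PCL1 genes lie below it.

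Over the 7 lists of clock, light and output genes, 3 of 141 tested genes rose and 31 fell, against 3.92% and 1.78% of all genes tested. Without transgenic 2, transgenic 3 or wild type 1, the falls numbered 14, 18 and 14 and the rises 0, 1 and 0. Over all genes tested in these fits, falls made up 0.244%, 0.608% and 0.278% and rises 0.415%, 1.23% and 0.679%, and calls in either direction dropped from 2500 to 289, 803 and 420. The hour of collection is not in the labels, and the part of daily phase in the ELF3 values was not tested.

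Among light receptors and outputs, calls were about as frequent as among all genes tested (3.92% higher, 1.78% lower). An unadjusted p under 0.05 was found for 24.0% of all genes tested. The 8 phytochrome genes, of the receptor family that ELF3 binds, had log2 differences from -0.48 to 0.54 and no call by limma (1 at an unadjusted p under 0.05). The genes described as COP1-like were listed at 0 in every library and were not tested. In the list of light receptors, 2 of 41 genes rose and 1 fell. Besides a cryptochrome-1-like gene, these were the UVR8-like genes GH_A11G1694 (log2 0.71, limma, adjusted p = 0.0139) and GH_A10G2465 (log2 -1.11, adjusted p = 0.0284). Among growth and flowering outputs, only PIF and HAT4 genes were tested. No gene described as FLOWERING LOCUS T or HEADING DATE 3A was among the genes tested. The 9 PIF genes, for growth-promoting factors that phytochromes target, were not called by limma. Their values ran from -0.70 to 0.23, with 1 at an unadjusted p under 0.05. Of the 14 tested outputs only GH_A08G1926, HAT4-like, a shade-induced homeobox gene in Arabidopsis, rose, at 71.7, 88.5 and 71.2 against 47.9, 42.7 and 53.9 FPKM (log2 0.67, limma, adjusted p = 0.0350). Its groups did not overlap. The 5 tested HAT4 genes had log2 differences from -0.05 to 0.67 (median 0.42), with 3 at an unadjusted limma p under 0.05.

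By Pearson correlation of log2(FPKM + 1) over the 6 libraries, the genes most like GH_D07G0249, the most abundant member, were GH_D12G2069 (an uncharacterized protein, r = 0.997), GH_A09G0457 (fidgetin-like protein 1, 0.996), GH_A09G2179 (uncharacterized, 0.995), GH_A11G3702 (E3 ubiquitin-protein ligase LOG2, 0.995) and GH_D05G3105 (a sugar phosphate translocator, 0.995). These values describe 6 libraries in 2 groups, and 633 genes reached 0.95, so the order among them carries little. None of the 5 was called (limma, adjusted p from 0.0504 to 0.393).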

How the data were processed

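The authors deposited 1 table with FPKM for 3 transgenic and 3 wild-type leaf libraries, per the file headers. The deposited value 1e-04 marks no estimated expression and was read as 0. Also deposited by the authors were a fold change (a ratio of mean FPKM), its log2, and a p-value and q-value from a test that is not named. Aligner, counting, strand use, build and annotation are not given in the sources used here. The table holds no counts, so depth is unknown and count tests were not run.

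The fit covered the 43837 genes whose group mean reached 1 FPKM in either group. It used log2(FPKM + 1) and limma (version 3.58.1, R version 4.3.3) with trend and robust estimation and no covariates. The fit was tested on simulated data with log2 changes larger than that of any ELF3 member. That test thus does not cover changes of the size seen in ELF3. Single values per library were compared by exact permutation tests in scipy 1.17.1. Members of ELF3 and the gene lists were chosen with earlier results of these data known. Named genes were all listed ELF3 genes, for each clock list and direction the called gene of lowest adjusted p, and the 5 genes most like the most abundant member. Other genes were named after their values were seen. Lists were searched in the protein descriptions. After the data were seen, 8 genes matched by CCA1 inside YUCCA and 1 ATHB-22 gene were left out. The LNK pattern as first written matched no gene and was changed, so the whole LNK list was formed after the data were seen. Alternatives were the pseudocount, the filter, 2 rescalings, plain limma, a replicate block and leaving out each library. No sequences were used here.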

Additional observations from a re-analysis of the deposited data

How the results depend on the processing

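Of the 9 members, 3 rose in the results above and with pseudocounts of 0.1 and 0.5 or a mean of at least 2 FPKM. Only GH_A07G0243 (1 member) rose with no filter on low values, after median-of-ratios scaling, after upper quartile scaling, with limma without trend and robust estimation, and with the replicate block. With 1 library left out, 0 to 2 members rose. None fell in any of these. Clock list rises ranged from 0 to 4 and falls from 14 to 27 with 1 library left out, against 3 and 31. With the clock lists as first written, which held no LNK gene, there were 22 falls. Whether replicate numbers pair the samples could not be settled. Correlations of deviations from the group means were weak, at 0.014 to 0.074 for equal and -0.084 to 0.058 for unequal numbers. The block left 25 clock falls and 2 rises, and 1532 calls over all genes against 2500. GH_A05G1345 turned to -0.055 and -0.036 (log2) after median-of-ratios and upper quartile scaling and ranged from -0.20 to 0.14 with 1 library left out. The share of GH_D05G1351 differed by 0.041 points, and by -0.456 to 0.318 points with 1 library left out. The summed level, the A subgenome share and the chromosome 7 share kept the direction of their mean difference throughout. In the summed level, however, the groups overlapped after either rescaling. Rescaling moved the median of all genes from 0.08 to 0.01 or 0.03. Without read counts, the precision of single values is unknown.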
